A study of Arabidopsis thaliana with 10 samples.

Results

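Mature pollen of pLAT52::RTL1 plants was compared directly with mature pollen of pMGH3::RTL1 plants, so that both sides of the contrast carried an RTL1 transgene and differed by design in the promoter in front of it. Of the 10 RNA-seq libraries of the study 4 belong to this contrast, 2 for each promoter, and they were chosen by genotype. Wild-type Col-0 pollen and the sorted pollen of the FTL lines did not enter the comparison. All plants were in the Col-0 background, carried RTL1-Myc and were grown in a greenhouse in long days with 16 h of light. The 2 libraries of a promoter came from 2 independent transgenic lines, which the study selected as homozygous in the T3 generation, so the spread between them covers both insertions and RNA samples. They are called line 1 and line 2 here, after the replicate numbers in the labels, and the groups are written pLAT52 and pMGH3 where values are listed. RNA was taken from whole mature pollen, in which each grain holds a vegetative cell and the sperm cells inside it.

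RTL1 (RNASE THREE-LIKE 1) is an RNase III that cleaves double-stranded RNA before DICER-LIKE enzymes can process it, and its ectopic expression lowers the siRNAs that Arabidopsis makes from transposons, repeats and some genes. The LAT52 promoter, from tomato, is active from the late microspore onwards and mainly in the vegetative cell, the cell that builds the pollen tube. The MGH3 promoter belongs to the histone H3 gene HTR10 and is active in the germ cells of the grain once the microspore has divided. In the vegetative nucleus heterochromatin is loosened and some transposable elements (TEs) are transcribed, whereas sperm chromatin is compact.

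The 4 libraries held 51348302 to 51654251 counted reads each over genes and TEs, so depth hardly differed. The tables listed 27394 genes and 31189 TEs, of which 27197 TEs lay outside genes. Features with at least 10 reads numbered 12890 and 12572 in the pLAT52::RTL1 libraries and 11706 and 11703 in the pMGH3::RTL1 libraries. Pollen identity was checked with marker lists. Vegetative cell markers took 4.37 to 6.94% of the reads and sperm cell markers 0.0737 to 0.108%, leaf markers took at most 0.00431%, and 8 of 12 tapetum and pollen coat genes had no read. None of the 11 sperm markers passed the test (median log2 fold change -0.10), and HTR10, the gene whose promoter drives the second transgene, had 3023 and 3556 against 3319 and 3723 normalised reads. Of the 12 vegetative markers 5 were lower in pLAT52::RTL1 and none was higher (median -0.55), or 3 lower and 1 higher with reads scaled to the library totals, and their summed normalised reads were 1848702 and 3061251 in pLAT52::RTL1 against 3660222 and 3834250 in pMGH3::RTL1. In bulk pollen, fewer cells of a type and less RNA per cell cannot be told apart. The 2 pMGH3::RTL1 libraries were more alike than the 2 pLAT52::RTL1 libraries, with a chi-square per degree of freedom of 50.7 against 226. It was taken over features above a minimum of reads in each pair.

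RTL1 itself (AT4G15417, chr4:8821717-8823076 in TAIR10) was read in all transgenic libraries and in neither wild-type library. Its raw reads were 270 and 138 under pLAT52, 134 and 156 under pMGH3, and 0 and 0 in Col-0. The 2 groups overlapped, and after scaling the difference was log2 fold change 0.01 ± 0.38, DESeq2 adjusted p = 0.998. Here and below the value after ± is the standard error of the log2 fold change. The 95% interval ran from -0.73 to 0.74, so equal transgene RNA was not shown.

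A total of 1118 features passed the test, defined here as a DESeq2 adjusted p under 0.05, which is 11.1% of the 10102 features tested. Fold changes are given as log2 of pLAT52::RTL1 over pMGH3::RTL1, so a positive value means more RNA under the vegetative promoter. Of these, 485 features were higher in pLAT52::RTL1 (4.8%) and 633 were lower (6.27%), and 723 differed by more than 2-fold, 307 of them higher and 416 lower. In all 1118 both libraries of one promoter lay above both of the other. Such a lack of overlap was common whether a feature was called or not. Among the 7724 tested features with a mean of at least 50 normalised reads, 28.6% lay apart with pLAT52::RTL1 higher and 26.9% with it lower. Normalised reads are reads divided by a size factor, the median ratio of a library to the geometric mean of all 4, and this choice matters here. The size factors were 1.21 and 1.17 for pLAT52::RTL1 and 0.837 and 0.871 for pMGH3::RTL1 although the totals were alike. The 50 most abundant genes of pMGH3::RTL1 pollen held 51.1 and 50.1% of its reads and 44.0 and 46.6% of the pLAT52::RTL1 reads. Because these genes were ranked by their pMGH3::RTL1 reads, a larger share there is favoured by the choice. The 100 most abundant features of each library held 60.6 and 61.9% under pLAT52::RTL1 and 65.0 and 64.0% under pMGH3::RTL1. Scaling by total reads instead raised the log2 fold changes by a median of 0.48, over features with a mean of at least 50 normalised reads. It called 2437 features higher and 356 lower (87.3% of the calls higher), so every count of lower or higher members below is relative to the median gene.

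**Figure D1:**
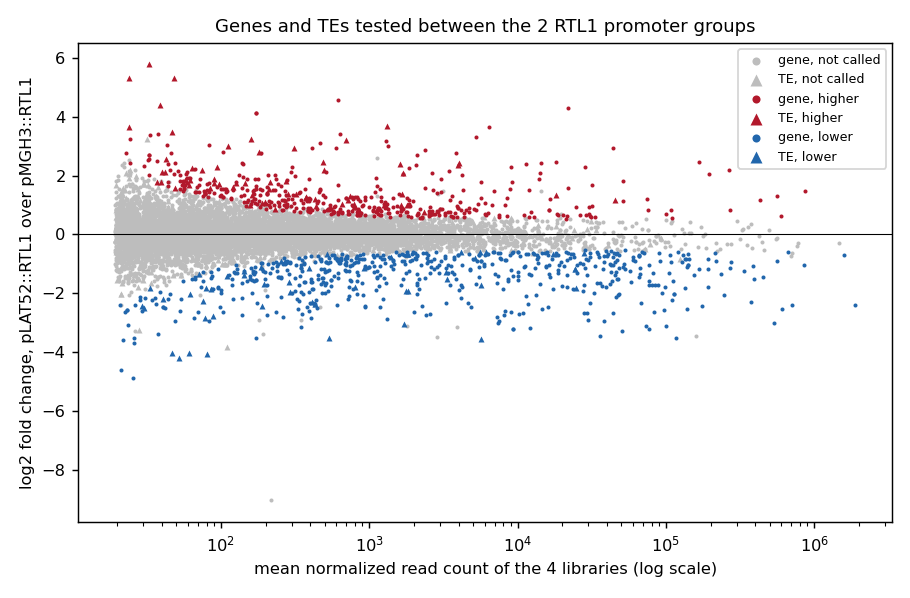
Each point is a gene or TE tested in the direct comparison, with the mean normalised read count of the 4 libraries on the log x axis and the log2 fold change of pLAT52::RTL1 over pMGH3::RTL1 on the y axis. The 485 features called higher and the 633 called lower are coloured. Of the 50 genes with the most reads in pMGH3::RTL1, 22 were called lower and 4 higher. That ranking used the pMGH3::RTL1 values themselves, which favours lower calls.

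Of the 9291 genes tested, 418 were higher (4.5%) and 579 lower (6.23%). These shares are the background for each count of called list members below. AT3G02480, a late embryogenesis abundant (LEA) protein, had 64184 and 18927 normalised reads under pLAT52 and 2191 and 2049.9 under pMGH3 (log2 fold change 4.29 ± 0.79, DESeq2 adjusted p = 1.72e-06). APRR2, a CheY-like two-component response regulator, had 1385 and 928 normalised reads under pLAT52 and 98 and 119 under pMGH3 (log2 fold change 3.41 ± 0.28, DESeq2 adjusted p = 5.52e-30). TYRDC, a tyrosine decarboxylase, had 3133 and 1639 normalised reads under pLAT52 and 259 and 329 under pMGH3 (log2 fold change 3.02 ± 0.29, DESeq2 adjusted p = 4.96e-22). In these 3 genes both pLAT52::RTL1 lines stood far above both pMGH3::RTL1 lines. PC1, a pollen calcium-binding protein, had 3166 and 1494 normalised reads under pLAT52 and 194 and 327 under pMGH3 (log2 fold change 3.16 ± 0.63, DESeq2 adjusted p = 1.77e-05). MAPR2, a membrane-associated progesterone-binding protein, had 463 and 193 normalised reads under pLAT52 and 16.7 and 20.7 under pMGH3 (log2 fold change 4.13 ± 0.48, DESeq2 adjusted p = 1.16e-15), but the overlapping locus AT2G24945 carried identical counts and the strand used in counting is not given in the sources used here, so the reads cannot be assigned to one of them. All 5 kept their call whichever library was left out. AT1G32280, a lipid-transfer-like protein, had 235 and 60.7 normalised reads under pLAT52 and 13.1 and 23 under pMGH3 (log2 fold change 3.03 ± 0.62, DESeq2 adjusted p = 3.13e-05), and was no longer called without pLAT52::RTL1 replicate 1 (DESeq2 adjusted p = 0.461). Line 1 had the larger value in 460 of the 485 higher features.

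**Figure D2:**
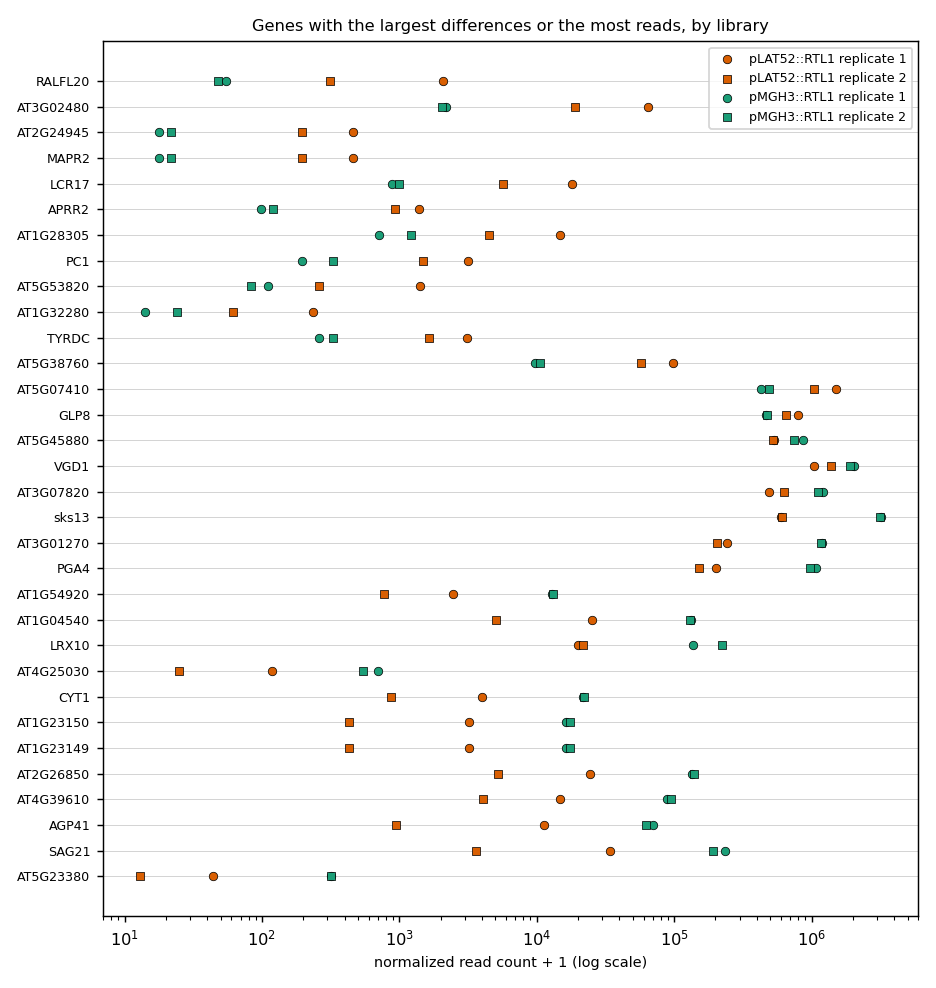
Normalised read counts plus 1 (log axis) in each of the 4 libraries for the genes with the highest and lowest log2 fold changes and the most abundant called genes, with promoters in separate colours and replicates 1 and 2 as circles and squares. In every gene shown both points of one promoter lie on one side of both points of the other, and the 2 pLAT52::RTL1 points are farther apart than the 2 pMGH3::RTL1 points in genes such as SAG21 and RALFL20.

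Genes on the LEA list were called in 1 direction only, whereas SAG21, a LEA-related protein outside the list, was lower (log2 fold change -3.50). SAG21 alone had 34144 and 3589 normalised reads under pLAT52 and 235185 and 193109 under pMGH3. The whole list summed to 285310 and 131316 under pLAT52 and 34377 and 34739 under pMGH3, so the totals depend on leaving SAG21 out. LEA proteins are small hydrophilic proteins that accumulate in seeds and pollen as they dry and protect membranes and proteins. Of 18 tested members 9 were higher in pLAT52::RTL1 and none was lower, with a list median of 1.82 beside -0.0031 over all features. The share higher over all genes tested was 4.5%. AT5G38760 had 98385 and 57497 normalised reads under pLAT52 and 9732 and 10573 under pMGH3 (log2 fold change 2.94 ± 0.25, DESeq2 adjusted p = 2.07e-29), and AT1G52680 had 8661 and 4754 normalised reads under pLAT52 and 1056 and 915 under pMGH3 (log2 fold change 2.77 ± 0.27, DESeq2 adjusted p = 1.98e-22). UNE15 had 68752 and 25286 normalised reads under pLAT52 and 9174 and 9966 under pMGH3 (log2 fold change 2.30 ± 0.67, DESeq2 adjusted p = 0.008). In each, the lower pLAT52::RTL1 line was still far above the higher pMGH3::RTL1 line. The other called members were AT5G53820 (3.12), AT1G15415 (2.08), the dehydrin AT1G54410 (2.07), AT2G23120 (2.02) and AT2G33690 (1.62), given as log2 fold changes. Without pLAT52::RTL1 replicate 1, the line with the larger values, 8 members were called, and without pMGH3::RTL1 replicate 1 or 2 there were 6, AT5G53820 being among those lost (adjusted p up to 0.602). Of 20 listed genes of the abscisic acid and dehydration response 6 were tested and none passed (list median 0.41). The log2 fold changes were 0.46 for the dehydrin ERD10, 0.35 for the dehydrin COR47 and 0.18 for ABI1. ABI1, a protein phosphatase of abscisic acid signalling, had 553 and 459.9 against 454 and 441 normalised reads.

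The promoters of AT3G02480, the LEA gene with the highest log2 fold change, and of AT5G38760, the one with the most reads, are shown because the letters ACGTG occur in the first window and not in the second. Each window runs from 250 bases before to 50 after the RefSeq start (TAIR10.1), on the plus strand, chr3:511970-512269 for AT3G02480 and chr5:15523923-15524222 for AT5G38760. Capitals mark ACGTG, the core of the abscisic acid response element, or its reverse complement CACGT, with the palindrome CACGTG counted as 1 place that holds both.
AT3G02480: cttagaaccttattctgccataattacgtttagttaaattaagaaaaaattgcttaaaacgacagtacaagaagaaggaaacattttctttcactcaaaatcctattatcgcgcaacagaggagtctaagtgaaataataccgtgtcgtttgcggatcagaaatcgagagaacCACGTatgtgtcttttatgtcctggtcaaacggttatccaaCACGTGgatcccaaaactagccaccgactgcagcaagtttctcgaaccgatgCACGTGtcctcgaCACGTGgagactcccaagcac
AT5G38760: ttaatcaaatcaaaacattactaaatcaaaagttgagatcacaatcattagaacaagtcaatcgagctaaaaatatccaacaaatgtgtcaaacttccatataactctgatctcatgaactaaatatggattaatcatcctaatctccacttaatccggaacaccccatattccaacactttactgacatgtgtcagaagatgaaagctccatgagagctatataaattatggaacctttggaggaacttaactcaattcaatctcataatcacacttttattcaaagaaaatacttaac
The first window held 4 such places, 3 of them CACGTG, and the second held none. On either strand ACGTG occurred in the windows of 4 of the 9 higher LEA genes, of 30.2% of the 417 higher genes with a window, of 26.9% of the 576 lower genes and of 26.9% of all 26894 genes. A match is a description of the letters only.

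Some families of small secreted proteins had more higher than lower members, to be set beside 4.5% higher and 6.23% lower among all genes tested. Low-molecular-weight cysteine-rich (LCR) and defensin-like peptides, which include pollen signals and antifungal peptides, had 6 of 23 tested members higher and 1 lower (median 0.74). LCR17 had 18111 and 5706 normalised reads under pLAT52 and 885 and 989 under pMGH3 (log2 fold change 3.67 ± 0.75, DESeq2 adjusted p = 3.31e-05), and LCR11 had 30395 and 18312 normalised reads under pLAT52 and 4395 and 4751 under pMGH3 (log2 fold change 2.41 ± 0.24, DESeq2 adjusted p = 1.37e-20). Plant S1 proteins, small secreted relatives of the poppy self-incompatibility factor, had 5 of 14 higher and none lower (median 0.66). AT1G28305, of this family, had 14726 and 4477 normalised reads under pLAT52 and 714 and 1206 under pMGH3 (log2 fold change 3.32 ± 0.85, DESeq2 adjusted p = 0.00168). In all 3 genes line 1 of pLAT52::RTL1 was highest and the groups lay far apart. Without either pMGH3::RTL1 library LCR17 (adjusted p up to 0.103) and AT1G28305 (up to 0.303) were not called, and each of these lists kept 3 higher members. DUF1216 proteins are uncharacterised proteins of pollen with longer transcripts, a median of 1658.5 bases against 514 for LCR and 794 for S1. They had 7 of 10 tested members higher and none lower (median log2 fold change 1.19), 6 of them in a cluster on chromosome 3 between AT3G28770 and AT3G28980. AT3G28980 had 357851 and 210008 normalised reads under pLAT52 and 45926 and 57461 under pMGH3 (log2 fold change 2.46 ± 0.25, DESeq2 adjusted p = 8.09e-20), and the pollen-abundant AT3G28790 had 413342 and 215762 normalised reads under pLAT52 and 68721 and 81353 under pMGH3 (log2 fold change 2.07 ± 0.27, DESeq2 adjusted p = 1.51e-12). Neither was called in the fit with replicate numbers as a block (DESeq2 adjusted p = 0.304 and 0.423). The S1 and DUF1216 lists were drawn up after their values had been seen, and without pMGH3::RTL1 replicate 1 the DUF1216 list kept 3 higher members.

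RALF peptides went both ways. These cysteine-rich peptides are released by the pollen tube and read by receptor kinases that keep its tip from bursting. Of the 14 tested 5 were higher and 3 lower (median 0.41), beside 4.5% higher and 6.23% lower among all genes tested. RALFL20 had 2070.4 and 309 normalised reads under pLAT52 and 53.8 and 47.1 under pMGH3 (log2 fold change 4.56 ± 1.19, DESeq2 adjusted p = 0.00202). RALFL30 had 18056 and 10177 normalised reads under pLAT52 and 4016 and 4266 under pMGH3 (log2 fold change 1.77 ± 0.26, DESeq2 adjusted p = 2.93e-10). RALFL8, much more abundant, had 196609 and 208564 normalised reads under pLAT52 and 645263 and 514469.7 under pMGH3 (log2 fold change -1.52 ± 0.20, DESeq2 adjusted p = 1.72e-12). The first 2 were higher in both pLAT52::RTL1 lines and RALFL8 was lower in both, with no overlap between promoters. The further higher members were AT2G32885 (2.94), RALFL13 (1.56) and RALFL11 (1.36), and the further lower ones RALFL9 (-1.24) and RALFL26 (-1.15). RALFL8, RALFL9 and RALFL26 together held most of the family's reads in each library. RALFL20 was lost without either pMGH3::RTL1 library (adjusted p up to 0.199), and without pMGH3::RTL1 replicate 2 the list had 1 higher and 3 lower members.

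Receptors and wall sensors of the same pathway had lower members only relative to the median gene, 5 of 13 tested (list median -0.12), whereas with total-read scaling 4 were lower and 3 higher. The share lower over all genes tested was 6.23%. LRX10, a leucine-rich repeat extensin of the pollen wall that binds RALF peptides, had 19845 and 21582 normalised reads under pLAT52 and 137358 and 224013 under pMGH3 (log2 fold change -3.12 ± 0.24, DESeq2 adjusted p = 1.83e-35). ANX2, a receptor kinase that maintains tube integrity, had 15779 and 20124 normalised reads under pLAT52 and 58736 and 64307 under pMGH3 (log2 fold change -1.78 ± 0.20, DESeq2 adjusted p = 2.35e-16). BUPS2, its partner receptor, had 4550.1 and 5771 normalised reads under pLAT52 and 14387 and 15867 under pMGH3 (log2 fold change -1.55 ± 0.20, DESeq2 adjusted p = 2.52e-12). In these genes the 2 pLAT52::RTL1 lines were close to each other and both were far below pMGH3::RTL1. LRX11 (-1.73) and BUPS1 (-0.83) made up the rest. The calls of LRX10, ANX2, BUPS2 and LRX11 held without any one library.

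Polarity and calcium genes of the pollen tube tip had a few lower members each, to be set beside 6.23% lower and 4.5% higher among all genes tested. Of 16 genes for pollen receptor kinases and the ROP switch, the small GTPase module that marks the growing tip, 4 were lower and none higher, and with total-read scaling 2 were lower and 7 higher. RIC1, an effector of ROP1, had 20945 and 18456 normalised reads under pLAT52 and 68198 and 59405 under pMGH3 (log2 fold change -1.70 ± 0.19, DESeq2 adjusted p = 2.56e-16), and PRK2, a receptor kinase that activates ROP1, had 46989 and 72079 normalised reads under pLAT52 and 141872 and 156229 under pMGH3 (log2 fold change -1.32 ± 0.23, DESeq2 adjusted p = 3.20e-07). PRK4 (-0.77) and REN1 (-0.70), a GTPase-activating protein, were called but not without either pMGH3::RTL1 library (adjusted p up to 0.334 and 0.608). Of 15 calcium genes 3 were lower and 1 higher, and with total-read scaling 3 were lower and 6 higher. CPK24, a calcium-dependent protein kinase that acts on a pollen potassium channel, had 32191 and 14191 normalised reads under pLAT52 and 144872 and 139844 under pMGH3 (log2 fold change -2.62 ± 0.56, DESeq2 adjusted p = 7.55e-05), and ACA9, a plasma membrane calcium pump, had 25077 and 30296 normalised reads under pLAT52 and 55806 and 58387 under pMGH3 (log2 fold change -1.04 ± 0.19, DESeq2 adjusted p = 2.55e-06). Both were below all pMGH3::RTL1 values, but without pMGH3::RTL1 replicate 2 neither was called (0.101 and 0.0599). Transport had 4 of 17 lower and none higher, 1 and 4 with total-read scaling. AHA6, a proton pump, had 372 and 455 normalised reads under pLAT52 and 992 and 953 under pMGH3 (log2 fold change -1.23 ± 0.23, DESeq2 adjusted p = 4.99e-06) and lost its call without pMGH3::RTL1 replicate 1 (0.0621). STP11 (-1.05), a hexose carrier, SUC1 (-1.16), a sucrose carrier, and AHA8 (-0.64) were the others, and all of them were lost without either pMGH3::RTL1 library (highest adjusted p from DESeq2 0.189 for STP11, 0.646 for SUC1 and 0.626 for AHA8). SUC1 was also lost without either pLAT52::RTL1 library, in the fit with replicate numbers as a block, with halved counts, with no independent filtering and with total-read scaling.

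The broad signalling classes had more lower than higher members relative to the median gene, an order that turned with total-read scaling. Among 251 protein kinases tested 35 were lower and 4 higher (median -0.09), against a background of 6.23% lower and 4.5% higher genes, and total-read scaling gave 18 lower and 55 higher. AT5G16500 had 13031 and 7347 normalised reads under pLAT52 and 51465 and 50725 under pMGH3 (log2 fold change -2.33 ± 0.25, DESeq2 adjusted p = 6.59e-18), and AT1G74490 had 746 and 361 normalised reads under pLAT52 and 3690.4 and 3233 under pMGH3 (log2 fold change -2.64 ± 0.29, DESeq2 adjusted p = 1.49e-17). Without pMGH3::RTL1 replicate 1, and likewise without replicate 2, 14 kinases were lower and none higher. RING and U-box proteins, most of which are ubiquitin ligases, had 16 of 160 lower and 1 higher, or 9 lower and 28 higher with total-read scaling. AT4G26400 had 6527 and 6969 normalised reads under pLAT52 and 21937 and 21418 under pMGH3 (log2 fold change -1.68 ± 0.19, DESeq2 adjusted p = 1.70e-17) and AT5G10650 had 972 and 983 normalised reads under pLAT52 and 3104 and 3272 under pMGH3 (log2 fold change -1.71 ± 0.20, DESeq2 adjusted p = 1.08e-15), with the 2 lines of each promoter nearly equal. Without pMGH3::RTL1 replicate 1 there were 5 lower members of this class and without replicate 2 there were 6. F-box proteins had 3 of 138 lower and none higher, and 2 lower and 25 higher with total-read scaling.

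**Figure D3:**
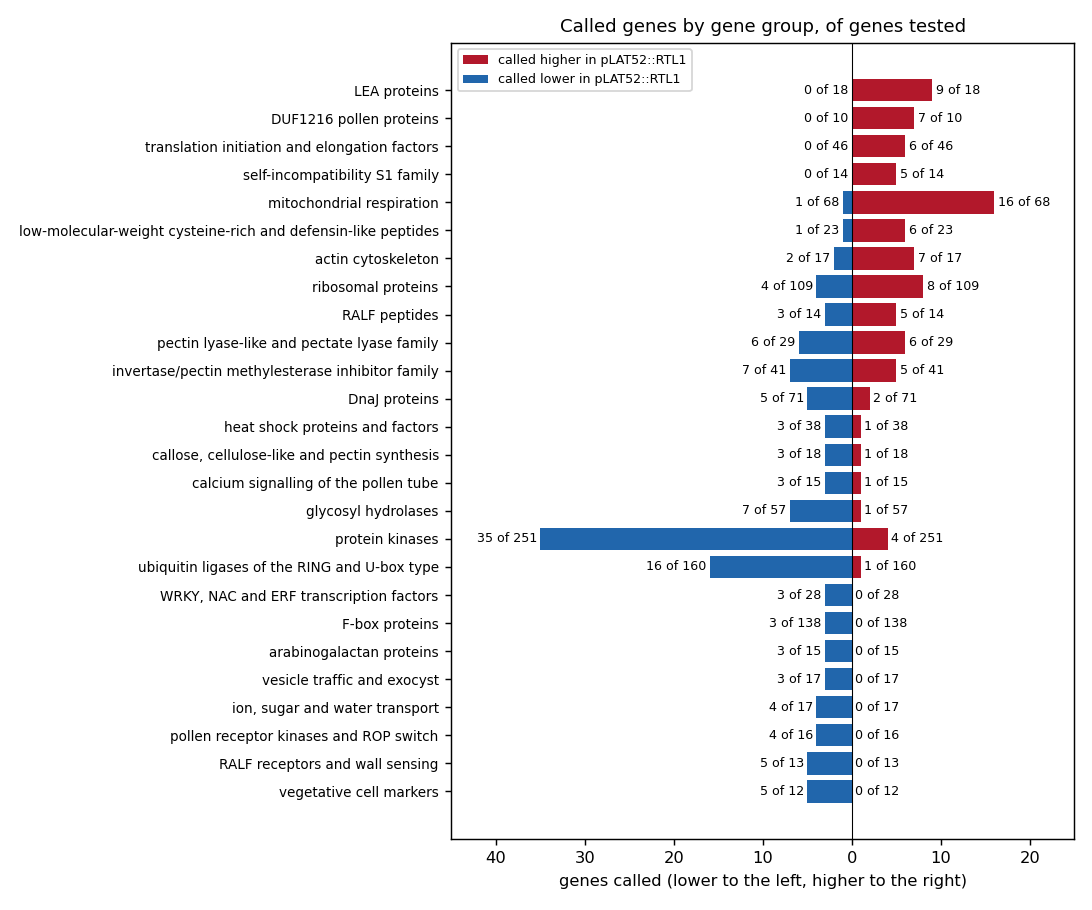
For each gene group, bars on the x axis give the number of members called higher (to the right) and lower (to the left) in pLAT52::RTL1 against pMGH3::RTL1, with the number tested printed beside them. The LEA (9 of 18) and DUF1216 (7 of 10) bars lie to the right only, and those of the RALF receptors (5 of 13) and vegetative markers (5 of 12) to the left only, although with total-read scaling the RALF receptors had 3 higher and 4 lower members and the vegetative markers 1 higher and 3 lower.

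Pectin enzymes, the most abundant messages of pollen, were split between the promoters. Pectin is the main polymer of the tube tip wall, and pollen secretes enzymes that cut it or remove its methyl groups. In the pectin lyase-like and pectate lyase family 6 of 29 were higher and 6 lower, or 11 and 5 with total-read scaling. The shares over all genes tested were 4.5% higher and 6.23% lower. AT3G01270, a pectate lyase, had 242445 and 204593 normalised reads under pLAT52 and 1202090.2 and 1171068 under pMGH3 (log2 fold change -2.41 ± 0.19, DESeq2 adjusted p = 3.36e-33). PGA4, a polygalacturonase, had 202926 and 151123 normalised reads under pLAT52 and 1076714 and 976963 under pMGH3 (log2 fold change -2.54 ± 0.21, DESeq2 adjusted p = 1.08e-30). PPME1, a pectin methylesterase of the tube tip, had 561963 and 307229.7 normalised reads under pLAT52 and 91422 and 99394 under pMGH3 (log2 fold change 2.19 ± 0.26, DESeq2 adjusted p = 3.30e-15). The first 2 were lower and PPME1 higher in both pLAT52::RTL1 lines, each by more than 4-fold on average. Without a library none of these 3 calls was lost, and PPME1 lost its call in the fit with replicate numbers as a block (DESeq2 adjusted p = 0.381). Among proteins with an invertase or pectin methylesterase inhibitor domain 5 of 41 were higher and 7 lower, or 15 higher and 3 lower with total-read scaling. VGD1, a methylesterase needed for tube growth through the style, had 1039648 and 1391319 normalised reads under pLAT52 and 2052086 and 1908531 under pMGH3 (log2 fold change -0.70 ± 0.21, DESeq2 adjusted p = 0.00895), a call that was lost with total-read scaling, with edgeR and without either pMGH3::RTL1 library.

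Neighbouring pectin genes went opposite ways. On chromosome 5, AT5G07410, AT5G07420 and AT5G07430 follow each other within a tandem array (the last 2 at chr5:2349455-2354202). AT5G07410 had 1504206 and 1039229 normalised reads under pLAT52 and 427612 and 489139.8 under pMGH3 (log2 fold change 1.47 ± 0.22, DESeq2 adjusted p = 1.85e-09), which is 3.56 and 2.36% of all reads under pLAT52 and 0.695 and 0.825% under pMGH3. AT5G07420 had 102403 and 57427 normalised reads under pLAT52 and 20633 and 24516 under pMGH3 (log2 fold change 1.82 ± 0.26, DESeq2 adjusted p = 1.07e-10). AT5G07430 had 146340.2 and 109283 normalised reads under pLAT52 and 677457 and 571298 under pMGH3 (log2 fold change -2.29 ± 0.21, DESeq2 adjusted p = 3.51e-24). So 2 genes of the array were higher and 1 lower, in both lines. On chromosome 3, AT3G07820 (-1.05), AT3G07830 (-1.05) and AT3G07840 (-1.15) were lower while the next gene, AT3G07850, was higher with 917442 and 682445 normalised reads under pLAT52 and 272621 and 374914 under pMGH3 (log2 fold change 1.305 ± 0.23, DESeq2 adjusted p = 4.57e-07). Copies in such arrays are similar in sequence and how multi-mapped reads were counted is not given in the sources used here, so their values are less certain than those of single genes. AT3G07820 was not called without pMGH3::RTL1 replicate 1 (DESeq2 adjusted p = 0.0908), and AT5G07410 not in the fit with replicate numbers as a block (0.189).

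Several other wall proteins were among the strongest differences in abundant messages. sks13, a pollen multicopper oxidase related to SKU5, had 602489 and 612459 normalised reads under pLAT52 and 3225701 and 3144368 under pMGH3 (log2 fold change -2.39 ± 0.18, DESeq2 adjusted p = 5.85e-36), or 1.42 and 1.39% of all reads against 5.24 and 5.30%. Its paralogue sks14 had 223018 and 266215 normalised reads under pLAT52 and 706052 and 624415 under pMGH3 (log2 fold change -1.44 ± 0.20, DESeq2 adjusted p = 1.32e-11). The 2 lines agreed closely in both genes. FLA3, a fasciclin-like arabinogalactan protein needed for the pollen wall, had 95034 and 171023 normalised reads under pLAT52 and 305704 and 367174 under pMGH3 (log2 fold change -1.34 ± 0.26, DESeq2 adjusted p = 7.98e-06), and with AGP23 (-0.83) and AGP41 (-3.44) it made 3 of 15 arabinogalactan proteins lower and none higher, 1 lower and 2 higher with total-read scaling. FLA3 was not called without pMGH3::RTL1 replicate 2 (DESeq2 adjusted p = 0.0616), nor were AGP23 and AGP41 without either pMGH3::RTL1 library. GAE4, an epimerase that makes the pectin precursor UDP-galacturonate, had 10714 and 3293 normalised reads under pLAT52 and 52739 and 52837 under pMGH3 (log2 fold change -2.91 ± 0.76, DESeq2 adjusted p = 0.00222), lost without either pMGH3::RTL1 library (adjusted p up to 0.326). UGP1, which makes UDP-glucose, was higher with 3396 and 1771 normalised reads under pLAT52 and 1094 and 1187 under pMGH3 (log2 fold change 1.18 ± 0.28, DESeq2 adjusted p = 4.95e-04) and was lost in the same way (up to 0.137). EXPA24, an expansin, had 3699 and 1776 normalised reads under pLAT52 and 557 and 758 under pMGH3 (log2 fold change 2.06 ± 0.31, DESeq2 adjusted p = 1.02e-09), and it was the only 1 of 7 tested expansins that passed. Both pLAT52::RTL1 lines were above both pMGH3::RTL1 lines for EXPA24 and UGP1. The shares over all genes tested were 4.5% higher and 6.23% lower.

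The actin cytoskeleton had more higher than lower members, 7 and 2 of 17 (median 0.51), beside 4.5% higher and 6.23% lower among all genes tested. Actin filaments carry vesicles to the tube tip, and profilins bind the actin monomers. PRF5, a pollen profilin, had 20241 and 9651 normalised reads under pLAT52 and 2779 and 3372 under pMGH3 (log2 fold change 2.28 ± 0.53, DESeq2 adjusted p = 3.53e-04), and PRF4 had 11954 and 5572 normalised reads under pLAT52 and 2462 and 2609 under pMGH3 (log2 fold change 1.79 ± 0.29, DESeq2 adjusted p = 3.39e-08). The pollen actins ACT12 (0.94), ACT1 (0.65), ACT3 (0.61) and ACT11 (0.61) and the depolymerising factor ADF7 (0.66) were also higher. In the opposite direction FH3, a formin that nucleates actin cables, had 1627 and 1443 normalised reads under pLAT52 and 6096 and 7565 under pMGH3 (log2 fold change -2.15 ± 0.21, DESeq2 adjusted p = 1.26e-22), and PLIM2B, an actin-bundling LIM protein, had 27903 and 22916 normalised reads under pLAT52 and 71832 and 59285 under pMGH3 (log2 fold change -1.37 ± 0.20, DESeq2 adjusted p = 1.31e-09). Profilins, actins and ADF7 were thus higher and the 2 called filament-organising proteins lower, with no overlap. Without pLAT52::RTL1 replicate 1 there were 4 higher members and without either pMGH3::RTL1 library 2, the 2 lower ones being called each time. Vesicle traffic had 3 of 17 lower and none higher, or 1 lower and 5 higher with total-read scaling. EXO70H3, an exocyst subunit, had 22701 and 27262 normalised reads under pLAT52 and 64382 and 55756 under pMGH3 (log2 fold change -1.27 ± 0.20, DESeq2 adjusted p = 1.00e-08).

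Nuclear genes for mitochondrial respiration had more higher than lower members. Of 68 tested genes for respiratory complexes 16 were higher and 1 lower (median 0.65), and 44 were higher and none lower with total-read scaling. AT5G05370, a small subunit of the cytochrome bc1 complex, had 814 and 409 normalised reads under pLAT52 and 177 and 157 under pMGH3 (log2 fold change 1.87 ± 0.33, DESeq2 adjusted p = 7.74e-07), and AT3G10860, its paralogue, had 369.8 and 168 normalised reads under pLAT52 and 87.2 and 57.4 under pMGH3 (log2 fold change 1.90 ± 0.42, DESeq2 adjusted p = 1.79e-04). AT1G76200, a subunit of complex I, had 351 and 209 normalised reads under pLAT52 and 98 and 96.4 under pMGH3 (log2 fold change 1.53 ± 0.36, DESeq2 adjusted p = 4.47e-04). In each of these genes line 1 was well above line 2, and both were above pMGH3::RTL1. The count depended on which libraries were used: without pLAT52::RTL1 replicate 1 only 1 member was higher (median 0.41), without replicate 2 there were 25, and without pMGH3::RTL1 replicate 1 or 2 there were 4 and 1, AT1G76200 being lost in each case but line 2 (DESeq2 adjusted p up to 0.189). These are short messages, and with size factors set within bins of transcript length, an alternative chosen after the data were seen, 10 were higher. Translation initiation and elongation factors had 6 of 46 higher and none lower, and ribosomal proteins 8 of 109 higher and 4 lower, the latter beside 4.5% higher and 6.23% lower among all genes. Without pLAT52::RTL1 replicate 1 these fell to 1 and 0 higher, without pMGH3::RTL1 replicate 1 to 1 and 0, and without its replicate 2 to 0 and 0. PRPL28, a plastid ribosomal protein, was lower with 789.8 and 741 normalised reads under pLAT52 and 2603 and 2392 under pMGH3 (log2 fold change -1.71 ± 0.20, DESeq2 adjusted p = 1.03e-14) whichever library was left out.

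**Figure D4:**
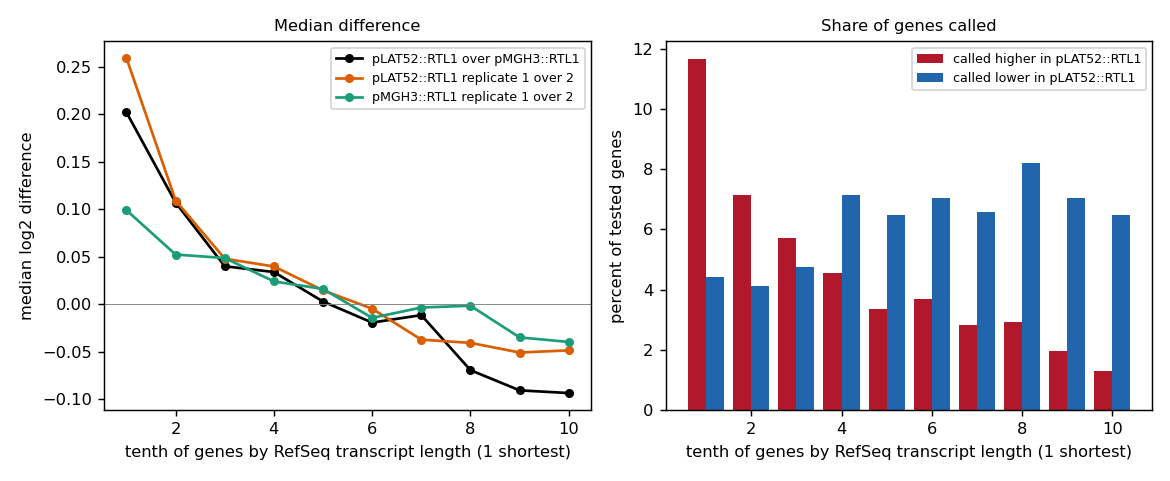
Tested genes in 10 equal bins of RefSeq transcript length, bin 1 being the shortest. The left panel gives the median log2 difference between the promoters and between the 2 lines of each, the right panel the percent of genes called. The shortest bin has 11.7% higher and a median of 0.20, the longest 1.297% higher and -0.09, and the difference between the 2 pLAT52::RTL1 lines falls along the same axis from 0.26 to -0.05.

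Transcript length moved with the contrast. Higher genes had a median length of 1300 bases (417 genes), lower genes 1908.5 (576) and genes not called 1796 (8256). Between the 2 pLAT52::RTL1 lines the median log2 difference fell from 0.26 in the shortest bin to -0.05 in the longest, and between the 2 pMGH3::RTL1 lines from 0.10 to -0.04. The part of length or RNA quality in the results on short messages (LCR, LEA, S1, respiratory and ribosomal genes) was not tested beyond the length-bin alternative, under which 7 LEA genes were higher.

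Calls in stress, hormone and metabolic lists are set beside 6.23% lower and 4.5% higher among all genes tested. Heat shock genes, at 7.89% lower and 2.63% higher, were near these shares. Of 38 heat shock proteins and factors 3 were lower and 1 higher, against 0 lower and 6 higher with total-read scaling, and each of the lower 3 was lost in that scaling. ERDJ3B, a DnaJ chaperone of the endoplasmic reticulum, was the only higher 1 of 14 genes of the unfolded protein response, with 1244 and 1412 normalised reads under pLAT52 and 561 and 526 under pMGH3 (log2 fold change 1.29 ± 0.22, DESeq2 adjusted p = 2.37e-07). P5CR, the last enzyme of proline synthesis, had 41.2 and 31.6 normalised reads under pLAT52 and 252 and 232 under pMGH3 (log2 fold change -2.73 ± 0.38, DESeq2 adjusted p = 2.55e-11), and no other of 6 proline genes passed. Both genes held their call without any one library. Of 20 listed jasmonate and wounding genes 5 were tested and none passed. Among regulators, the MADS-box gene AGL29 had 255 and 224 normalised reads under pLAT52 and 763 and 697 under pMGH3 (log2 fold change -1.61 ± 0.25, DESeq2 adjusted p = 5.46e-09), MYB120, which acts in sperm release, was also lower (-1.13) but not when any 1 library other than pLAT52::RTL1 replicate 2 was left out or with total-read scaling, and the remaining 8 of 10 MADS-box and MYB genes of pollen did not pass (3 higher and 1 lower with total-read scaling). WRKY, NAC and ERF factors had 3 of 28 lower and none higher, or 1 lower and 3 higher with total-read scaling, led by WRKY45 at 37.9 and 39.3 against 122 and 156 normalised reads (-1.85 ± 0.43, lost without either pMGH3::RTL1 library).

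Much of the machinery that makes and uses siRNAs was not tested. Of 32 listed genes of RNA-directed DNA methylation and small RNA biogenesis 8 were tested. For DNA methylation, demethylation and histone variants 9 of 19 were tested. Over all genes tested 10.7% were called in either direction, and 1 call among 8 is near that share. Of 8 tested genes of RNA-directed DNA methylation and small RNA biogenesis 1 passed: KTF1, an adaptor of the pathway, had 32.1 and 50.4 normalised reads under pLAT52 and 7.17 and 8.03 under pMGH3 (log2 fold change 2.44 ± 0.81, DESeq2 adjusted p = 0.0263), a gene with few reads that was picked out after its values were seen. AGO5, an Argonaute of the male germline, had 152 and 202 against 129 and 158 normalised reads (0.30 ± 0.35), with overlapping groups. None of 9 genes for DNA methylation, demethylation and histone variants passed, including MET1, the maintenance methyltransferase, at 1332 and 2130.4 against 1933 and 2219 (-0.26 ± 0.25) and DDM1, a remodeller that keeps TEs silent, at 1251 and 1944 against 1670.2 and 1872 (-0.15 ± 0.25). For both, 1 of the 2 pLAT52::RTL1 lines lay within the pMGH3::RTL1 range or next to it. Of the 3 tested imprinted genes linked to the triploid block, PEG9 was higher with 117154 and 129304 normalised reads under pLAT52 and 73739 and 79760.1 under pMGH3 (log2 fold change 0.68 ± 0.19, DESeq2 adjusted p = 0.00384), lost with edgeR and without either pMGH3::RTL1 library (adjusted p up to 0.503).

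The genes with the largest deficit under the vegetative promoter were often much lower in 1 line than in the other. AT5G23380, a DUF789 protein, had 42.8 and 12 normalised reads under pLAT52 and 315 and 317 under pMGH3 (log2 fold change -3.52 ± 0.45, DESeq2 adjusted p = 3.47e-13), a call that held without any one library. SAG21, a mitochondrial LEA-related protein of stress and senescence, had 34144 and 3589 normalised reads under pLAT52 and 235185 and 193109 under pMGH3 (log2 fold change -3.50 ± 1.18, DESeq2 adjusted p = 0.0296). AT2G26850, an F-box protein, had 24499.8 and 5226 normalised reads under pLAT52 and 135446 and 140690.1 under pMGH3 (log2 fold change -3.22 ± 0.94, DESeq2 adjusted p = 0.00788). CYT1, which makes the GDP-mannose used in walls and glycosylation, had 3979 and 862 normalised reads under pLAT52 and 21579 and 22166 under pMGH3 (log2 fold change -3.18 ± 0.93, DESeq2 adjusted p = 0.00832). In each of these genes line 2 of pLAT52::RTL1 was the lowest of the 4 libraries and the 2 pMGH3::RTL1 lines were closer together. AGP41 (-3.44), AT4G39610 (-3.28), AT1G23150 (-3.20, counts identical to the overlapping AT1G23149), AT4G25030 (-3.14), AT1G04540 (-3.12) and AT1G54920 (-3.02) showed the same order. Of the 138 features lower by more than 4-fold, 121 had their smaller value in line 2, while 269 of all 633 lower features did. Except AT5G23380 and LRX10, the genes of this group lost their call without either pMGH3::RTL1 library, for example SAG21 with an adjusted p of up to 0.669. Genes more than 8-fold apart between the 2 lines, chosen after their values were seen, were 7 for pLAT52::RTL1, all lower in line 2, and 2 for pMGH3::RTL1. XBAT31, an ankyrin-repeat ubiquitin ligase, was read 1127 and 26 times under pLAT52 against 4502 and 4501 times under pMGH3 and did not pass (-3.47, DESeq2 adjusted p = 0.291). AT2G39240, a homologue of the RNA polymerase I initiation factor RRN3, had 2 and 0 against 724 and 0, so only 1 pMGH3::RTL1 line had its message.

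More TEs outside genes were called higher than lower, an order that turned without pLAT52::RTL1 replicate 1. Over all 811 TEs tested, inside and outside genes, 67 were higher (8.26%) and 54 lower (6.66%). Of 449 tested outside genes 47 were higher (10.5%) and 25 lower (5.57%), with a median of 0.15, and 126 were higher and 17 lower with total-read scaling. Together the 27197 TEs outside genes took 0.724 and 0.702% of the reads in pLAT52::RTL1 and 0.552 and 0.564% in pMGH3::RTL1, and those with at least 10 reads numbered 796 and 715 against 598 and 583. Without pLAT52::RTL1 replicate 1 only 13 were higher and 20 lower, and without its replicate 2 there were 50 and 34. Leaving out pMGH3::RTL1 replicate 1 gave 19 higher and 10 lower, and leaving out its replicate 2 gave 22 and 9. Reads between genes and TEs moved along with this, at 3.33 and 2.96% against 2.40 and 2.42% of all counted reads with the intervals included, and their part in the TE counts was not tested. Copies of a TE family can be similar in sequence, and how multi-mapped reads were counted is not given, so a copy may share reads with its relatives. Of the 19 Gypsy retrotransposons outside genes called higher, 2 had an identical run of 100 bases or more in another of them. That count leaves out AT1TE51705 and AT1TE51700, which share bases because the first lies inside the second. How far reads were shared was not tested.

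The higher TEs were mainly Gypsy retrotransposons and MuDR transposons. Gypsy elements, which copy themselves through RNA and crowd around the centromeres, had 19 of 91 higher and 2 lower. Of these the higher ones numbered 6 without pLAT52::RTL1 replicate 1, 9 without pMGH3::RTL1 replicate 2, and 30 with total-read scaling. MuDR elements, which move as DNA, had 15 of 99 higher and 8 lower, and Helitrons, which move by rolling-circle replication, 7 and 6 of 81. The higher MuDR elements included 3 adjoining AT9NMU1 pieces with nearly equal reads, so the elements counted are not all separate loci. Copia elements had 2 of 52 higher and 4 lower, L1 lines 1 of 31 higher and En-Spm elements none of 25. Within Gypsy the ATHILA name group had 15 of 48 higher and 2 lower. Its summed reads were 18452 and 13625 in pLAT52::RTL1 against 6760 and 6610 in pMGH3::RTL1, and 15196 and 11648 against 8076 and 7587 after scaling. The VANDAL group of MuDR had 9 of 40 higher and 2 lower, with 18472 and 14042 reads against 6742 and 7571. In both groups all pLAT52::RTL1 sums were above the pMGH3::RTL1 sums, and line 1 was the higher one. ATCOPIA elements had 1 of 48 higher and 4 lower.

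**Figure D5:**
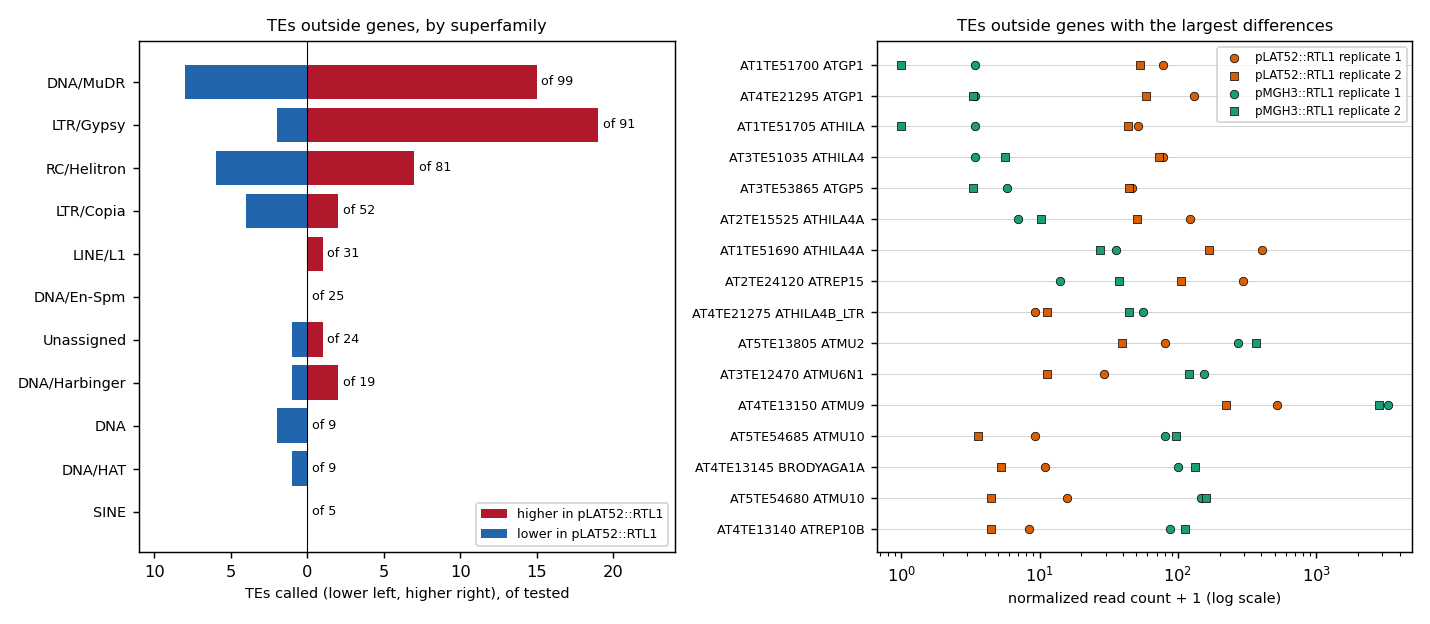
The left panel gives the number of TEs outside genes called higher (right) and lower (left) in pLAT52::RTL1 by superfamily, with the number tested beside each bar, Gypsy having 19 higher and 2 lower of 91. The right panel gives normalised reads plus 1 (log axis) in each library for the TEs with the largest differences, in which the points of the 2 promoters do not overlap.

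Within ATHILA the calls came from ATHILA4 (6 of 8 higher), ATHILA4A (6 of 19) and ATHILA4C (2 of 5), and none of these was lower. These annotations are not all separate places. The higher ATHILA4 annotations AT1TE43420, AT1TE43430 and AT1TE43445 lie close together at chr1:13292855-13301583. AT3TE51105 (ATHILA4) lies beside AT3TE51110 (ATHILA4C). The copies with the largest differences are shown with their raw reads. AT3TE51035, an ATHILA4 copy, was read 93 and 84 times under pLAT52 and 2 and 4 times under pMGH3 (ratio of normalised reads 21.1, 95% counting interval 9.52 to 58.4). AT4TE18360, another ATHILA4 copy, had 762 and 561 reads against 55 and 69 (log2 fold change 2.93 ± 0.31, DESeq2 adjusted p = 4.06e-19). Both copies were read strongly in both pLAT52::RTL1 lines and at a low level in both pMGH3::RTL1 lines. They lie on different chromosomes, 25100 and 17224 bases from the nearest gene, and 121 bases of each (TAIR10, plus strand) are shown because they share an identical stretch of 61 bases, in capitals, which a read of 100 bases can fall in only in part.
AT3TE51035, chr3:12323580-12323700: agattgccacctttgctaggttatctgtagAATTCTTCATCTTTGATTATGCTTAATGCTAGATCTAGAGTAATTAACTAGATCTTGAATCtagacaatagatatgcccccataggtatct
AT4TE18360, chr4:4295244-4295364: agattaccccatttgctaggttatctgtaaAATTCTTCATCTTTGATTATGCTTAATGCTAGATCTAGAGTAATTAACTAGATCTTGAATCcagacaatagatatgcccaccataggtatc
AT1TE51690, an ATHILA4A copy, had 493 and 195 reads against 29 and 23 (log2 fold change 3.23 ± 0.46, DESeq2 adjusted p = 2.01e-10). The ATGP group had 4 of 23 higher and none lower. AT4TE21295, an ATGP1 copy, had 158 and 68 reads against 2 and 2 (ratio 40.5, interval 15.6 to 150), and AT1TE51700, also ATGP1, 93 and 61 against 2 and 0 (ratio 55.2, interval 15.0 to 460). AT1TE51705, an ATHILA copy with 61 and 50 reads against 2 and 0, lies inside AT1TE51700, so its reads are in part the same. ATGP5 was represented by AT3TE53865 with 55 and 51 reads against 4 and 2 (ratio 12.7, interval 5.63 to 35.3). Families such as ATLANTYS2 and ATGP2, with 5 tested copies each, had no call (medians 0.00 and -0.82).

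VANDAL calls were smaller but came from abundant copies. Of 7 tested VANDAL5 annotations 5 were higher, as were all 3 VANDAL18NA annotations, and none was lower. They are not all separate copies. The VANDAL5 annotation AT5TE50565 lies inside AT5TE50560, and the VANDAL18NA annotations AT3TE65820 and AT3TE65825 adjoin each other. The examples here were picked after their values were seen. AT3TE59735, VANDAL5, had 3386 and 2315 reads against 907 and 1120 (log2 fold change 1.01 ± 0.24, DESeq2 adjusted p = 3.80e-04). AT1TE58740, VANDAL18NA, had 664 and 360 against 104 and 104 (1.81 ± 0.34, 2.80e-06). Both were higher in each pLAT52::RTL1 line. VANDAL6, with 7 tested copies, had 1 lower and none higher, and ATCOPIA36 had 2 of 3 lower. AT2TE27820, ATCOPIA36, had 4953 and 3999 reads against 4711 and 6472 (-0.80 ± 0.22, 0.00345), so that its raw reads overlapped between promoters and separated only after scaling.

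Distance to genes differed between higher and lower TEs. Of the 47 higher TEs 8 lay within 500 bases of a gene, the median distance was 3840 bases, and they fell into 32 separate places when copies within 5000 bases were joined. Of the 25 lower TEs 10 lay that close, with a median of 1169 bases and 19 places, and among all tested 30.3% were that close, with a median of 1334. The nearest gene was called in the same direction for 6 of the 8 higher and 5 of the 10 lower TEs near a gene, and for 4 of the 39 higher and none of the 15 lower TEs farther away. TEs that overlap genes followed the host: all 20 higher ones had a higher host gene, and 27 of 29 lower ones had a lower host gene. The cases that were close to genes or inside them therefore cannot be told apart from reads of the gene.

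The largest losses were 2 short stretches of neighbouring elements. On chromosome 4 AT4TE13140 (ATREP10B, a Helitron), AT4TE13145 (BRODYAGA1A) and AT4TE13150 (ATMU9, a MuDR element) follow each other at chr4:2802509-2803778, at 1869, 1826 and 673 bases from the nearest gene. AT4TE13140 was read 9 and 4 times under pLAT52 and 73 and 97 times under pMGH3 (log2 fold change -4.19 ± 0.65, DESeq2 adjusted p = 7.63e-09). AT4TE13150 had 633 and 260 against 2765 and 2492 (log2 fold change -3.05 ± 0.59, DESeq2 adjusted p = 6.32e-06). On chromosome 5 the ATMU10 copies AT5TE54680 and AT5TE54685 adjoin each other at chr5:15119607-15119844, and AT5TE54680 had 18 and 4 reads against 123 and 139 (log2 fold change -4.06 ± 0.57, DESeq2 adjusted p = 4.92e-11). In all of these both pLAT52::RTL1 lines were lower, and the value of line 2 was the smallest of the 4 libraries. They kept their call without any one library, unlike AT3TE12470 (-2.83), lost without pMGH3::RTL1 replicate 1 (DESeq2 adjusted p = 0.0503). Just past the chromosome 4 stretch AT4TE13155 (HELITRON2), 428 bases from the same gene, was also lower (-1.83, DESeq2 adjusted p = 0.0486). Whether each stretch is 1 transcript was not tested. The first element of each is shown whole (TAIR10, plus strand) because it opens one of the 2 stretches with the largest losses.
AT4TE13140, chr4:2802509-2802582: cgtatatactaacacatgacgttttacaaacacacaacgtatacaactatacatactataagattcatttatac
AT5TE54680, chr5:15119607-15119712: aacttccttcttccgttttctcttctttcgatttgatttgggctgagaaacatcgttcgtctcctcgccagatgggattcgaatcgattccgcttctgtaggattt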

How the data were processed

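Paired reads of 100 bases from whole mature pollen were aligned to TAIR10 with STAR by the authors. The deposited values are raw counts for each gene, TE and intergenic interval, with no normalisation, and the counting program, its use of strand and its treatment of multi-mapped reads are not given in the sources used here. Most counts are even (65.7 to 67.1% of them in a library), as when both mates of a pair are counted. Groups followed the genotype in the labels, with 2 pLAT52::RTL1 and 2 pMGH3::RTL1 libraries. Col-0 was used only as background for RTL1 and intergenic reads and in 1 alternative, and the 4 FTL libraries were not used. Intergenic intervals stayed out of the test.

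Genes and TEs were fitted together with DESeq2 1.42.0 (R 4.3.3; Wald test, median-of-ratios size factors, independent filtering, no shrinkage, Benjamini-Hochberg adjusted p under 0.05), which was tested on simulated data. With 2 against 2 libraries no permutation or rank test can reach 0.05. The members, lists and tests were chosen with earlier results of these data known, and 4 lists were made after values had been seen (SKU5-similar, DUF1216, S1 and Ole e 1 proteins). Genes were named by rule: RTL1, the 12 highest and 12 lowest called genes with a mean of at least 50 normalised reads, the 8 most abundant called genes, the 8 highest and 8 lowest called TEs outside genes with a mean of at least 20, each without overlap between groups, and up to 4 members of each list, the called ones with the largest change or otherwise the most abundant. Names outside the rule were picked after their values were seen, as were the called list members given beyond 4. Alternatives were edgeR 4.0.16 quasi-likelihood, other scalings and filters, halved counts, a replicate block, Col-0 added for the spread, length bins and leaving out each library. Annotation, promoters and transcript lengths came from RefSeq (TAIR10.1), which matched 26907 of 27394 genes. Counting intervals cover counting error only.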

Additional observations from a re-analysis of the deposited data

Results flagged for a closer look

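Reads in intergenic intervals, which enter no comparison between the promoters, were more frequent in both pLAT52::RTL1 libraries than in the other pollen libraries compared here. They made up 3.33% of all counted reads, the intervals included, in pLAT52::RTL1 replicate 1 and 2.96% in replicate 2, against 2.40 and 2.42% in pMGH3::RTL1 and 2.23 and 2.30% in Col-0 pollen. The share of reads in TEs outside genes was ordered the same way, at 0.724 and 0.702% against 0.552 and 0.564% of the reads over genes and TEs. What these intervals hold was not tested.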

How the results depend on the processing

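Scaling by total reads raised the calls from 1118 to 2793 (2437 higher and 356 lower) and those among TEs outside genes from 72 to 143. It moved the log2 fold changes up by a median of 0.48, over features with a mean of at least 50 normalised reads. With 1 library left out the calls ranged from 371 (without pMGH3::RTL1 replicate 1) to 1719 (without pLAT52::RTL1 replicate 2) and the TEs outside genes from 29 to 84, with 13 higher and 20 lower without pLAT52::RTL1 replicate 1. With 1 library in a group, the lone library is assumed to vary like the pair of the other group, and the pMGH3::RTL1 lines were the more alike. The other alternatives gave 924 to 1353 calls and 62 to 91 TEs outside genes, among them edgeR with 1077, of which 965 were shared with the calls reported, and size factors within bins of transcript length, chosen after the data were seen, with 1086. No feature called was called in the opposite direction in any of them.

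The replicate block gave 1030 calls. Same-numbered libraries are separate lines and share only a number (correlation of their deviations 0.215 over 7724 features, with 2 pairs), so it was not used. Of 140 named genes and TEs that were called, 98 were called in every alternative that kept all 4 libraries and 61 in every alternative, and none turned in direction. With counts divided by 2 and rounded up the calls fell to 959. This division adds no sampling noise, and the counts may hold both mates of a pair, so it cannot show the effect of depth. The 2 lines a promoter limit these results.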

Other observations

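Glycosyl hydrolases had 7 of 57 tested members lower in pLAT52::RTL1 and 1 higher, or 4 lower and 8 higher with total-read scaling. GH9A4, an endoglucanase of family 9, had 73720.2 and 37216 normalised reads under pLAT52 and 304057 and 287345 under pMGH3 (log2 fold change -2.41 ± 0.27, DESeq2 adjusted p = 9.74e-17), with no overlap. In the Ole e 1 family of pollen allergens, a list made after values were seen, AT1G29140 was higher (0.82) and AT5G45880 lower (-0.61) among 3 tested, and both calls were lost without either pMGH3::RTL1 library (DESeq2 adjusted p up to 0.217 and 0.781). GLP8, a germin-like protein among the most abundant messages, had 795813 and 650118 normalised reads under pLAT52 and 463948 and 474483 under pMGH3 (0.62 ± 0.19), a call lost with edgeR and without either pMGH3::RTL1 library. DnaJ proteins, co-chaperones of HSP70, had 5 of 71 lower and 2 higher, beside 6.23% lower and 4.5% higher among all genes, or 4 lower and 14 higher with total-read scaling, with AT5G18140 at 1524 and 1814 normalised reads against 3848 and 3677 (-1.17 ± 0.20, DESeq2 adjusted p = 3.05e-07), a call that held without any one library.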
